A study of Mus musculus and Homo sapiens with 12 samples.

Results

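The 10 genes described here mark the entry of blood progenitors into the lymphoid lineages: IL7R, RAG1, RAG2, EBF1, PAX5, IGHM, BLNK, DNTT, CD79B and LTB. They were taken as a named list and matched by gene symbol without regard to case, out of 134419 genes listed in the count tables of both experiments (55487 mouse and 78932 human). All 10 had a symbol in mouse, and 9 passed the filter on low counts. In human, 5 had a symbol in the table used (IL7R, RAG1, BLNK, CD79B and LTB) and all 5 passed the filter, while human RAG2, EBF1, PAX5, IGHM and DNTT were not analysed here.

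Lymphoid-primed progenitors begin to transcribe lymphoid genes at low levels while they can still make myeloid cells. The receptor for interleukin 7 carries a growth signal for early lymphocytes, the RAG1 and RAG2 proteins together cut DNA to assemble antigen receptor genes, and EBF1 and PAX5 are the transcription factors that set and hold B cell identity. The μ heavy chain encoded by IGHM is displayed with CD79A and CD79B as the pre-B cell receptor, which signals through the adaptor BLNK, and in the fetal liver these steps start before birth.

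Polyadenylated RNA was sequenced from 12 libraries, 3 in each of 4 groups. The mouse libraries came from cells of fetal liver at E13.5 (embryonic day) that were sorted as live, Kit-positive and negative for Gr1, Cd11b, CD3, B220 and Ter119 (LK cells, a mixed progenitor population). The WT group was Ddx21f/f and the cKO group was Vav-Cre; Ddx21f/f, so every mouse library carried the floxed alleles and only the cKO libraries carried Cre, which the Vav promoter drives in blood cells. The human libraries came from cells differentiated from the embryonic stem cell line H1, given a lentivirus with mCherry and a hairpin, either control (shNC) or directed at DDX21 (shDDX21), and 2 days later sorted as CD34+, CD45+, CD43+ and hairpin-positive. The labels do not say how many embryos went into a mouse library or whether the human libraries were separate cultures, so p-values measure only the spread between these libraries. The B220 and CD3 antibodies of the mouse sort remove later B and T cells before the RNA is made.

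Total counts ranged from 21116079 to 23898130 in mouse and from 15289510 to 19798608 in human. Ddx21, the targeted RNA helicase gene, stood at 1424 ± 12.5 CPM (SD, n = 3) in WT and at 280.2 ± 3.62 in cKO, and human DDX21 at 470.1 ± 6.05 in shNC and 68.3 ± 1.14 in shDDX21. Kit, which defines the mouse sort, stood at 362 ± 5.02 CPM in WT and 317 ± 5.17 in cKO. CPM are edgeR's counts scaled to library size with TMM factors, and a level of 3 counts in 1 library, used as the detection floor, equals 0.122 to 0.146 CPM in mouse and 0.154 to 0.196 in human. In bulk RNA, fewer cells of a type and less RNA per cell cannot be told apart.

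In the mouse experiment, which asks what loss of Ddx21 does to fetal liver progenitors, most of the lymphoid genes were much lower in cKO. Il7r, Rag1, Ebf1, Pax5, Ighm and Blnk fell to between 13.47% and 25.7% of their WT level, Ltb rose 2.595-fold, and Rag2 and Cd79b did not pass the test. Of the 9 tested, 6 were lower and 1 was higher at an adjusted p under 0.05 (edgeR's quasi-likelihood test, Benjamini-Hochberg over 14918 genes). Among all genes tested, 36.5% were called, 15.8% lower and 20.7% higher, as 2360 lower and 3083 higher (1612 and 3565 with total-count scaling, which left the 6 and 1 as they were). All 6 decreases were at least 2-fold, which held for 1.80% of all genes. The median log2 fold change of the 9 was -2.09, beside 0.00057 over all genes tested. Summed over the 10 genes, expression ranged from 52.4 to 57.2 CPM in the WT libraries and from 19.65 to 23.95 CPM in the cKO libraries.

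**Figure D1:**
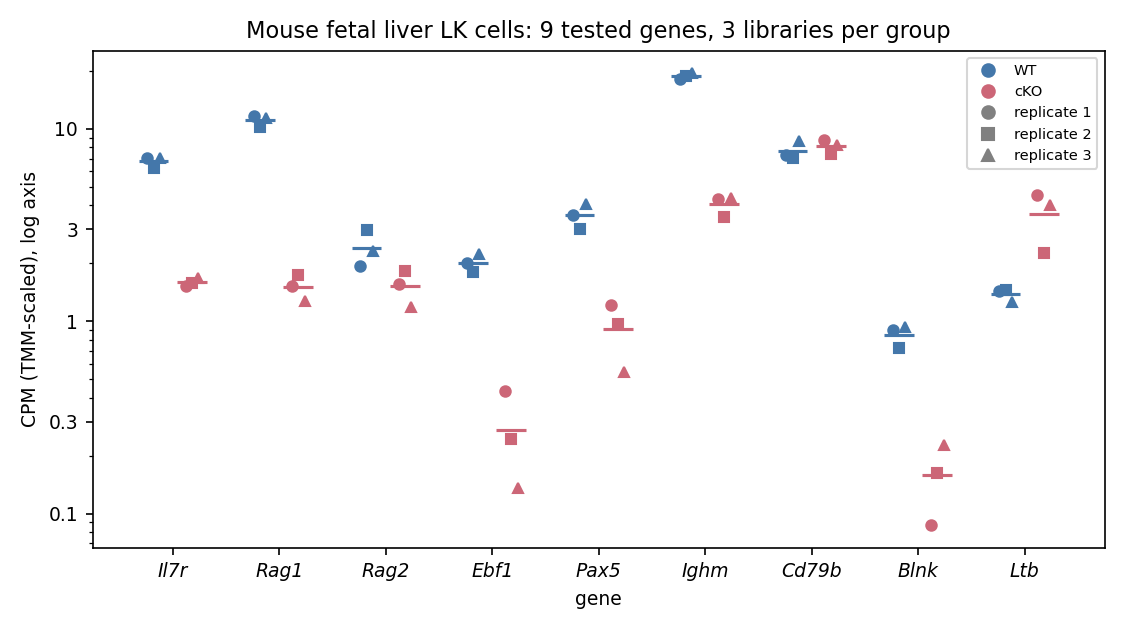
Expression of the 9 tested genes in mouse LK cells. The vertical axis is TMM-scaled CPM on a log scale, each symbol is 1 library (shape gives the replicate number, which does not pair libraries) and the bar is the group mean. For Il7r, Rag1, Ebf1, Pax5, Ighm and Blnk all 3 cKO libraries lie far below the WT libraries, Rag2 is close to touching, Cd79b overlaps, and Ltb is higher in cKO.

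The receptor comes first in this pathway. Il7r encodes the alpha chain of the interleukin 7 receptor, which the receptor for TSLP also uses, and lies at chr15:9505788-9530176 on the minus strand (GRCm38, as are all mouse positions here). It gave 158, 129 and 152 counted reads in WT, against 35, 39 and 37 in cKO. Every cKO library lay below every WT library, and the 3 values within each group were close together. Il7r fell from 6.81 ± 0.457 CPM to 1.59 ± 0.0778 (SD, n = 3), or -2.09 on the log2 scale (SE 0.12, 95% interval -2.38 to -1.81, adjusted p = 2.213e-05).

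The recombinase genes are neighbours on chromosome 2, and they did not move alike. Rag2, on the plus strand at chr2:101624718-101632529, and Rag1, on the minus strand at chr2:101638282-101649501, point toward each other across a gap of 5752 bases. Rag1, whose protein holds the catalytic site, gave 260, 209 and 244 counted reads in WT, against 35, 43 and 28 in cKO. The groups stood far apart, with the highest cKO library well under the lowest WT library. Rag1 fell from 11.05 ± 0.780 to 1.51 ± 0.237 CPM (SD, n = 3), or -2.86 on the log2 scale (SE 0.14, adjusted p = 1.062e-05). Rag2, the cofactor that binds methylated histone H3, gave 43, 61 and 50 counted reads in WT, against 36, 45 and 26 in cKO. After scaling for library size, its lowest WT library (1.93 CPM) was just above its highest cKO library (1.82 CPM), so the groups did not overlap but nearly met. The log2 fold change of Rag2 was -0.65 (SE 0.23, 95% interval -1.19 to -0.11) and missed the threshold (adjusted p = 0.064, edgeR's quasi-likelihood test).

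Per kilobase of exon, Rag1 RNA was 1.78 to 3.13 times Rag2 RNA in the WT libraries and 0.495 to 0.558 times in the cKO libraries. The order of the pair therefore turned over in all 3 cKO libraries, and the ratios did not overlap. A two-sided exact permutation test of the log ratio gave p = 0.1, the smallest p that 3 against 3 libraries allow. Any ratio without overlap gives that p, so it adds nothing to the lack of overlap. Another gene, B230118H07Rik, runs through both on the minus strand and shares exon bases with them: 80 with Rag1, on the same strand (1.21% of the exon bases of Rag1), and 208 with Rag2, on the opposite strand (6.07%). It was looked at because of that overlap and went the other way, with 330, 275 and 317 counted reads in WT, against 485, 565 and 508 in cKO (log2 fold change 0.64, SE 0.079, adjusted p = 0.0007705). Whether reads were counted by strand is not given in the sources used here, and the part of these shared bases in the Rag2 value was not tested.

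**Figure D2:**
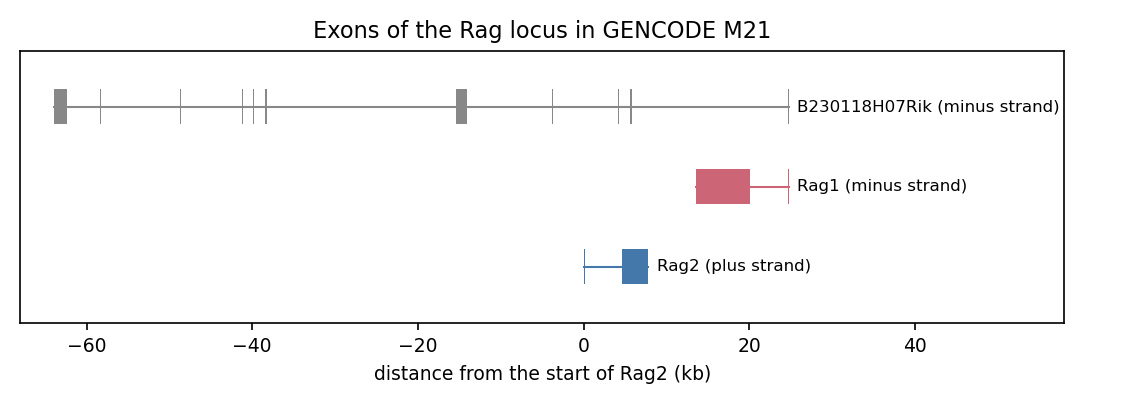
Exons (boxes) of Rag2, Rag1 and B230118H07Rik in GENCODE M21, with distance from the start of Rag2 in kb on the horizontal axis. The 2 Rag genes face each other 5752 bases apart, and exons of B230118H07Rik lie over the 5′ end of Rag1 and within the large Rag2 exon.

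The stretches just upstream of the pair are shown because these neighbours moved by different amounts. They are the 250 bases before the RefSeq start of each gene (GRCm38.p6), on the gene's strand: chr2:101649533-101649782 on the minus strand for Rag1 and chr2:101624462-101624711 on the plus strand for Rag2. The Rag1 window does not reach the Rag1 start given above and ends at the 5′ end of B230118H07Rik (position 101649532), which lies on the same strand and rose. Capitals mark matches to 6 motifs searched on both strands. The E2A type of E-box was spelled CAGNTG. The PU.1 core was spelled GAGGAA. The Ikaros motif was spelled TGGGAA, and the RUNX motif was spelled TGTGGT. Longer motifs with open positions were used for EBF and NF-kB.
Rag1: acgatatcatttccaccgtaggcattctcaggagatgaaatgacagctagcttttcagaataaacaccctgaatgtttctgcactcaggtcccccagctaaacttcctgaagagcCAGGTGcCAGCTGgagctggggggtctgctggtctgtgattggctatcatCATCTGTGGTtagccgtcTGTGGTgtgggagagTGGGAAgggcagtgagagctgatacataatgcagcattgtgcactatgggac
Rag2: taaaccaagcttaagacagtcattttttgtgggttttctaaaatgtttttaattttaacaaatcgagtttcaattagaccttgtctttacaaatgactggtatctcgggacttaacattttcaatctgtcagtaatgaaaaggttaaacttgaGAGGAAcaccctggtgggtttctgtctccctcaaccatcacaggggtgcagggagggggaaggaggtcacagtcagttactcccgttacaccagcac
The Rag1 window held 6 matches: 3 E-boxes, 2 RUNX and 1 Ikaros, with the last E-box, read on the other strand, overlapping the first RUNX match. The Rag2 window held 1 match, to the PU.1 core. Of 32544 RefSeq windows of the same length, 44.8% held an E-box of this type, 14% a RUNX match, 21.6% an Ikaros match and 23.4% a PU.1 core, so single matches are common. Windows with 2 or 3 matches to the same motif were not counted, so the repeated matches of Rag1 have no background here. The marked stretches are matches of letters and were not tested as binding sites.

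The B lineage transcription factors Ebf1 and Pax5 both fell. Ebf1, the factor that opens B cell genes, spans chr11:44617317-45008091 on the plus strand and gave 45, 37 and 48 counted reads in WT, against 10, 6 and 3 in cKO. All cKO libraries lay below all WT libraries, and the lowest of them was at the detection floor. Ebf1 fell from 2.02 ± 0.213 to 0.272 ± 0.152 CPM (SD, n = 3), or -2.86 on the log2 scale (SE 0.32, adjusted p = 0.0004752). Pax5, which holds B cell identity after Ebf1, spans chr4:44524757-44710487 on the minus strand and gave 79, 62 and 88 counted reads in WT, against 28, 24 and 12 in cKO. Its groups did not overlap either, and the same cKO library was lowest for both factors. Pax5 fell from 3.55 ± 0.533 to 0.912 ± 0.342 CPM (SD, n = 3), or -1.95 on the log2 scale (SE 0.26, adjusted p = 0.001212). Per kilobase, Pax5 RNA was 1.85 to 2.02 times Ebf1 RNA in WT and 3.09 to 4.41 times in cKO, without overlap (exact permutation p = 0.1, the smallest possible), with the cKO ratios resting on 3 to 10 counts of Ebf1.

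The receptor genes split. Ighm, the constant region of the μ heavy chain, lies at chr12:113418558-113422730 on the minus strand and gave 404, 387 and 418 counted reads in WT, against 99, 86 and 96 in cKO. The libraries of each group were tightly grouped and the groups far apart. Ighm fell from 18.8 ± 0.641 to 4.05 ± 0.490 CPM (SD, n = 3), or -2.21 on the log2 scale (SE 0.11, adjusted p = 1.115e-05). Cd79b, the signalling chain Ig-beta, lies at chr11:106311341-106314762 on the minus strand and gave 162, 145 and 185 counted reads in WT, against 201, 182 and 182 in cKO. Its groups overlapped, and the difference was within the spread of the libraries (log2 fold change 0.09, 95% interval -0.19 to 0.37, adjusted p = 0.5889). Cd79a, the partner chain of Cd79b, was singled out after its values were seen: it gave 36, 26 and 19 counted reads in WT, against 10, 8 and 11 in cKO, and it fell by 1.58 on the log2 scale (SE 0.31, adjusted p = 0.007172).

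Relative to both partners, Cd79b was higher in the cKO libraries. Per kilobase, Cd79b RNA was 0.494 to 0.583 times Ighm RNA in WT and 2.50 to 2.79 times in cKO. Against Cd79a the ratio was 4.58 to 9.91 in WT and 16.8 to 23.2 in cKO. Neither ratio overlapped between the groups. The ratio to Ighm gave an exact permutation p of 0.1, the smallest possible, which groups without overlap always give here. Both ratios are therefore descriptions, and Cd79a was also chosen on these values.

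Blnk and Dntt were the rarest of the genes. Blnk, the adaptor that links the pre-B cell receptor to downstream enzymes, lies at chr19:40928927-40994535 on the minus strand and gave 20, 15 and 20 counted reads in WT, against 2, 4 and 5 in cKO. The groups did not overlap, and 1 cKO library was under the floor of 3 counts. Blnk fell from 0.852 ± 0.107 to 0.159 ± 0.0699 CPM (SD, n = 3), or -2.39 on the log2 scale (SE 0.34, adjusted p = 0.001642). Dntt, the terminal transferase that adds bases at antigen receptor joints, lies 34739 bases away at chr19:41029275-41059525 on the plus strand and had 1 count in 1 WT library and 0 in the other 5. It was not tested, and a change in Dntt was not detectable at this depth.

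Ltb was the 1 gene of the 9 tested that rose. It encodes lymphotoxin beta, a membrane-bound ligand of the TNF family, and lies at chr17:35194439-35196320 on the plus strand, 3060 bases from Tnf. Ltb gave 32, 30 and 27 counted reads in WT, against 104, 56 and 89 in cKO. All cKO libraries were above all WT libraries, but the cKO libraries spread widely and replicate 2 was lowest. Ltb rose from 1.38 ± 0.113 to 3.61 ± 1.19 CPM (SD, n = 3), or 1.38 on the log2 scale (SE 0.28, 95% interval 0.72 to 2.04, adjusted p = 0.008085). An increase of at least 2-fold held for 7.27% of all genes. Counting the genes whose groups did not overlap in CPM, 7 were lower in cKO (with Rag2) and 1 was higher, beside 21.4% and 27.6% of all genes tested.

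The upstream sequence of Ltb is shown because Ltb alone among these genes rose. It is the 182 bases at chr17:35194257-35194438 on the plus strand, the portion of the RefSeq window (GRCm38.p6) that lies before the annotated transcripts, with capitals for matches to the same 6 motifs.
Ltb: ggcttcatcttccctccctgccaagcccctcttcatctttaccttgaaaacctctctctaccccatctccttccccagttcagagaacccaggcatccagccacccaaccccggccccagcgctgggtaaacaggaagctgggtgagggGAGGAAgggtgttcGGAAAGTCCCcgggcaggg
The 2 matches are a PU.1 core and, on the other strand, the NF-kB letters, which 17.7% of RefSeq windows of 250 bases held. No EBF match lay in any of the 9 windows found for 8 of the genes, while 0.787% of all windows held one. RefSeq windows for Ighm and Cd79b were not used here.

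Ranked by CPM per kilobase of exon, the WT order was Ighm (9.96), Cd79b (5.34), Rag1 (1.67), Il7r (1.46), Ltb (0.912), Rag2 (0.703), Pax5 (0.401), Ebf1 (0.207), Blnk (0.142) and Dntt (0.00708). Only Ltb and Rag2 overlapped among neighbours in that order. In cKO, the order of the same measure began with Cd79b (5.68), Ltb (2.38) and Ighm (2.15), followed by Rag2 (0.445), Il7r (0.342), Rag1 (0.229), Pax5 (0.103), Ebf1 (0.0278) and Blnk (0.0265). There, Ltb overlapped Ighm, Rag2 overlapped Il7r, and Ebf1 overlapped Blnk. The leading gene per kilobase thus changed from the heavy chain to Cd79b.

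Markers of other cell types were summed in the same libraries. Over all mouse genes tested, 36.5% were called, 20.7% higher and 15.8% lower. The 15 markers of T, NK and innate lymphoid cells ranged from 11.9 to 13.3 CPM in WT and from 30.8 to 33.7 in cKO. Of the 6 tested, 3 were higher, and the most abundant was Nkg7, at 6.32 ± 1.06 CPM in WT and 24.2 ± 0.995 in cKO (log2 fold change 1.93, adjusted p = 3.557e-05). The others that were higher, named after their values were seen, were Cd3g, with 9, 11 and 8 counted reads in WT, against 25, 16 and 19 in cKO (log2 fold change 0.98, adjusted p = 0.03873), and Thy1, with 1, 7 and 9 against 18, 20 and 15 (log2 fold change 1.503, adjusted p = 0.048). Of the other defining markers, Cd3d and Cd3e had at most 1 count in any library, and Ptcra and Ncr1 had 0 in all. The 8 plasmacytoid dendritic cell markers ranged from 30.3 to 38.3 CPM in WT and from 37.1 to 47.0 in cKO, with 2 higher and 2 lower of 7 tested. Runx2 led that list (log2 fold change 0.35, adjusted p = 0.02051), while Siglech, named after its values were seen, gave 31, 41 and 25 counted reads in WT, against 5, 4 and 3 in cKO (log2 fold change -3.09, adjusted p = 0.0005456).

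The 10 macrophage markers summed to 2.09 to 2.73 CPM in WT and 1.18 to 1.52 in cKO, with C1qc at 0 in all libraries. The 1 tested, Adgre1, was lower (log2 fold change -1.12, adjusted p = 0.01283), as were 15.8% of all genes tested. The 9 hepatocyte markers summed to 10.8 to 12.5 CPM in WT and 42.6 to 47.2 in cKO. All 5 tested were higher, beside 20.7% of all genes tested. Trf led the hepatocyte markers by level (log2 fold change 0.45, adjusted p = 0.00539). Alb, picked after its values were seen, went from 0.417 ± 0.180 to 12.1 ± 1.47 CPM. The part of these cells in the values of the lymphoid genes was not tested.

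The same genes were then read in the human experiment, which asks what a short knockdown of DDX21 does to H1-derived stem-like cells. IL7R and LTB fell clearly, CD79B fell slightly, and RAG1 and BLNK did not pass the test. Of 5 tested, 3 were lower and 0 were higher in edgeR's quasi-likelihood test, and the same 0 were higher in DESeq2 and at an unadjusted p under 0.05. Over all 20188 genes tested, 52.7% were called, 27.4% lower and 25.3% higher. Among the 14883 tested with a symbol, which all 5 have, 62.4% were called and 34.8% were lower, so 3 of 5 called is near the background. The median log2 fold change was -0.45, beside 0.0052 over all genes tested. A decrease of at least 2-fold, seen for IL7R and LTB, held for 3.83% of all genes.

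**Figure D3:**
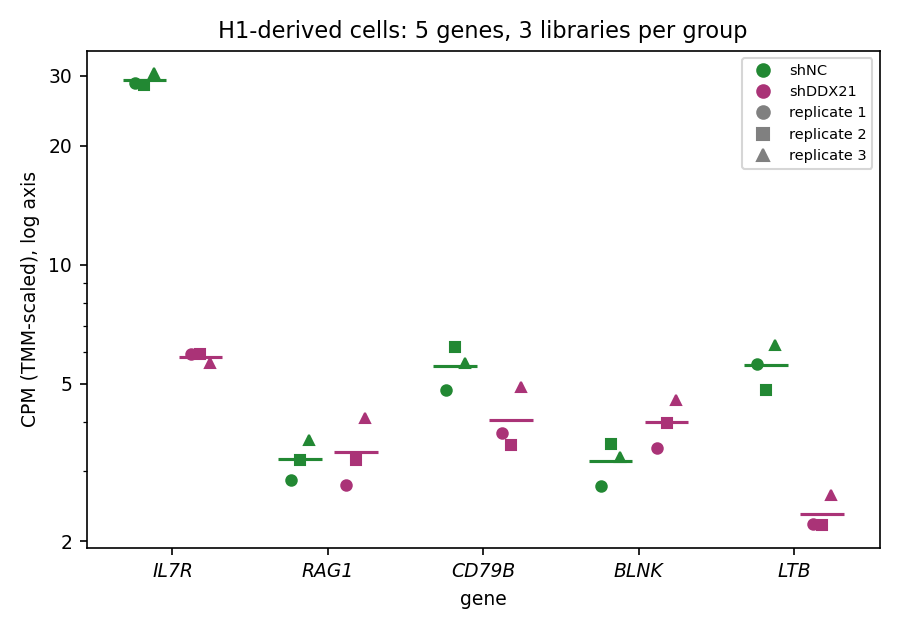
Expression of the 5 genes in H1-derived cells. The vertical axis is TMM-scaled CPM on a log scale, each symbol is 1 library and the bar is the group mean. IL7R and LTB are lower in all 3 shDDX21 libraries, and RAG1, BLNK and CD79B overlap between the groups.

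IL7R, at chr5:35852695-35879603 on the plus strand (positions as in the deposited table, hg38 per the submitters' processing notes), gave 544, 437 and 541 counted reads in shNC, against 116, 100 and 99 in shDDX21. The groups were far apart and tight. IL7R fell from 29.25 ± 1.04 to 5.84 ± 0.176 CPM (SD, n = 3), or -2.32 on the log2 scale (SE 0.090, adjusted p = 4.982e-35). LTB, at chr6:31580525-31582522 on the minus strand, gave 106, 74 and 111 counted reads in shNC, against 43, 37 and 46 in shDDX21, without overlap. It fell from 5.56 ± 0.709 to 2.34 ± 0.242 CPM (SD, n = 3), or -1.25 on the log2 scale (SE 0.17, adjusted p = 2.471e-09).

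CD79B, at chr17:63928738-63932336 on the minus strand, gave 91, 95 and 100 counted reads in shNC, against 73, 59 and 86 in shDDX21. The highest shDDX21 library slightly exceeded the lowest shNC library after scaling. CD79B fell by 0.45 on the log2 scale (SE 0.15, adjusted p = 0.01143). That call was lost with DESeq2 (adjusted p = 0.0573) and without shNC replicate 2 (0.06735), shDDX21 replicate 1 (0.0644) or shDDX21 replicate 2 (0.07214).

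RAG1, at chr11:36510372-36593156 on the plus strand, gave 54, 49 and 64 counted reads in shNC, against 54, 54 and 72 in shDDX21, with full overlap. Its log2 fold change was 0.057 (95% interval -0.31 to 0.43, adjusted p = 0.8215). BLNK, at chr10:96189171-96271587 on the minus strand, gave 52, 54 and 58 counted reads in shNC, against 67, 67 and 80 in shDDX21. Its groups overlapped after scaling, and its log2 fold change was 0.33 (95% interval -0.024 to 0.68, adjusted p = 0.1133). Both RAG1 and BLNK were above the floor in every human library.

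Per kilobase, the shNC order was IL7R (4.86 CPM per kilobase), LTB (3.62), CD79B (2.61), RAG1 (0.399) and BLNK (0.301), with no overlap between neighbours. In shDDX21, CD79B (1.91) and LTB (1.53) overlapped at the top, IL7R followed (0.970), and RAG1 (0.416) and BLNK (0.378) overlapped at the bottom. Groups not overlapping in CPM were seen for 2 of 5 genes, both lower, beside 29.5% of all genes in that direction. Marker sums in human were 101 to 106 CPM in shNC and 118 to 124 in shDDX21 for 7 T, NK and innate lymphoid genes. Of these 7, 3 were higher and 2 lower, and CD4 alone went from 83.9 ± 1.88 to 102.9 ± 2.92 CPM. For 5 plasmacytoid dendritic genes, led by BST2, the sums were 55.7 to 56.8 and 65.3 to 73.4, with 2 higher and 1 lower. For 6 macrophage genes, led by MERTK, they were 90.1 to 98.2 and 73.4 to 79.4, with 0 higher and 4 lower. Among all human genes with a symbol, 62.4% were called. The part of all these markers in the values of the lymphoid genes was not tested.

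The effects in the 2 experiments were then compared gene by gene, as the difference between the cKO and shDDX21 log2 fold changes over 10313 genes matched by symbol. Of the 5 lymphoid genes, 4 differed in edgeR's quasi-likelihood test and IL7R did not, while 56.2% of all matched genes differed (35.8% with the mouse effect above the human one, 20.4% below). RAG1 fell in mouse and did not pass the test in human (difference -2.92, SE 0.23, adjusted p = 8.078e-07), and so did BLNK (-2.72, SE 0.37, adjusted p = 7.366e-05). LTB rose in mouse and fell in human (2.63, SE 0.34, adjusted p = 4.003e-05). CD79B differed by 0.54 (SE 0.20, adjusted p = 0.04071). That last call was lost with RLE factors (adjusted p = 0.05035) and when any of 8 of the 12 libraries was left out: WT replicates 1 and 2, cKO replicates 1 and 3, shNC replicates 2 and 3, and shDDX21 replicates 1 and 2 (adjusted p up to 0.09928).

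IL7R fell in both experiments, to 23.4% of WT and to 19.97% of shNC. Its difference of 0.23 did not pass edgeR's quasi-likelihood test (unadjusted p = 0.2041, adjusted p = 0.2698). The SE of 0.13 and the 95% interval of -0.048 to 0.51 were computed from the F statistic of the same fit. They are narrower than that p implies, and the reason was not tested. Separately, the fit shares 1 estimate of spread, although the biological coefficient of variation was 10.5% in mouse and 2.23% in human. Species, cell source, the kind of perturbation and its duration cannot be told apart in this comparison.

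**Figure D4:**
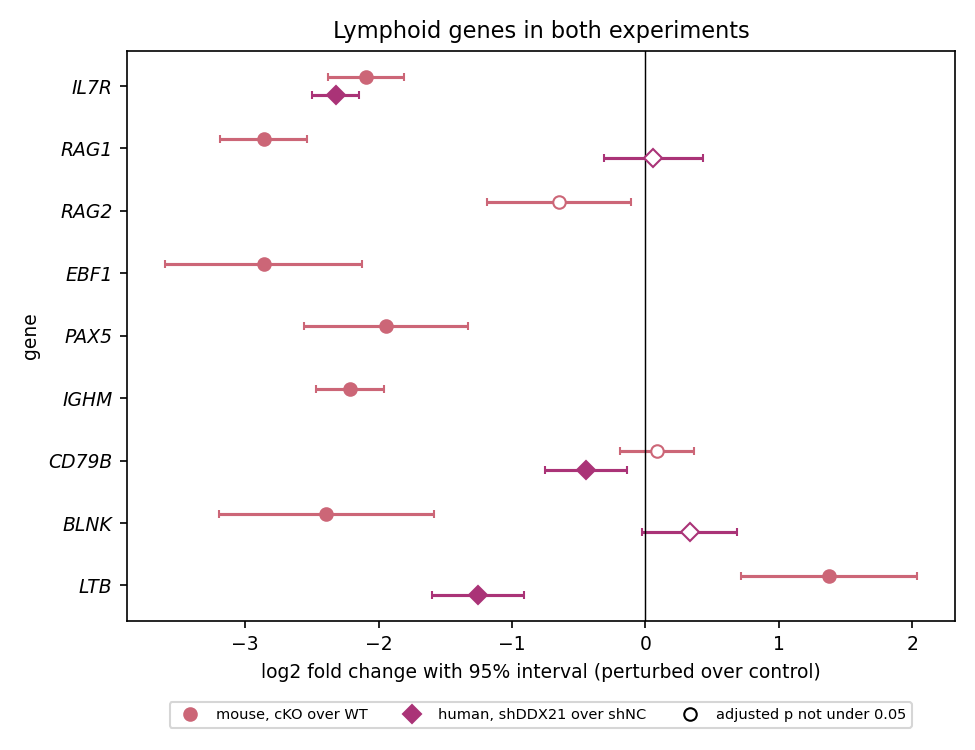
Log2 fold changes with 95% intervals in mouse (circles) and human (diamonds), 3 libraries per group. Open symbols mark an adjusted p that is not under 0.05. The IL7R intervals overlap, RAG1 and BLNK lie below 0 in mouse and have open symbols in human, and LTB lies on opposite sides of 0.

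The wider lymphoid pathways were read from 6 lists holding 88 mouse genes. Of 73 tested in mouse, 21 were higher and 16 lower (50.7% called, beside 36.5% of all genes, 20.7% higher and 15.8% lower), with a median log2 fold change of 0.087. In human, 62 of 87 listed genes had a symbol and were tested, and 11 were higher and 36 lower (75.8% called), with a median of -0.23. Among all human genes with a symbol, 62.4% were called, 34.8% lower. These shares are the background for each list count without a fold limit that follows, and no list was tested against them. When calls also had to reach 2-fold, 9 list genes were called in mouse (3 higher, 6 lower) and 4 in human, all lower. Over all genes tested, calls of at least 2-fold were 7.27% higher and 1.80% lower in mouse, and 3.83% lower in human.

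Among the interleukin 7 and FLT3 partners, 3 rose and 2 fell of 10 tested in mouse (3 and 0 without WT replicate 1, WT replicate 2 or cKO replicate 3). Cish, a feedback inhibitor that STAT5 switches on, rose by 2.23 on the log2 scale (adjusted p = 1.259e-05), from 4.77 ± 0.593 to 22.4 ± 1.54 CPM. The 2 that fell, named after their values were seen, were Stat5a and Stat5b. Their log2 fold changes were -0.35 and -0.46 (adjusted p = 0.03664 and 0.03184, edgeR's quasi-likelihood test). Il2rg, the chain that pairs with Il7r, rose by 0.97 (adjusted p = 0.0001287), and the kinase Jak1 by 0.29 (adjusted p = 0.003053). Flt3, read after its values were seen, was at 37.4 ± 0.867 CPM in WT and 36.9 ± 0.262 in cKO (adjusted p = 0.8153). In human, 2 rose and 4 fell of 8 (1 and 4 with total-count scaling, 2 and 2 with upper-quartile factors), and BCL2, the survival protein, fell by 2.20 (adjusted p = 1.804e-17), with 136, 97 and 111 counted reads in shNC, against 27, 27 and 23 in shDDX21. JAK1 rose by 0.25 (adjusted p = 9.31e-14), and JAK3 fell by 0.13, a call lost with upper-quartile factors (adjusted p = 0.07871).

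Of the 12 genes that join the cut ends in V(D)J recombination or bend DNA for the RAG proteins, 3 rose and 3 fell in mouse (4 and 2 with total-count scaling). Hmgb2, a DNA-bending partner of the RAG proteins, fell by 0.82 (adjusted p = 0.0004757) and its relative Hmgb1 by 0.24 (adjusted p = 0.002971), while the kinase gene Prkdc rose by 0.31 (adjusted p = 0.002751). The mouse count was 1 higher and 2 lower with DESeq2 and without WT replicate 1 or 2 or cKO replicate 2 or 3. In human, 7 of 12 fell and 2 rose. PRKDC, HMGB1 and the end-binding subunit XRCC5 fell by 0.54, 0.50 and 0.46.

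Among 21 lymphoid transcription factors tested in mouse, 4 rose and 6 fell (7 and 6 with total-count scaling). Irf8, a factor of B and dendritic lineages, fell from 28.0 ± 2.07 to 7.70 ± 0.277 CPM (log2 fold change -1.86, adjusted p = 8.412e-06). Ikzf1, which encodes Ikaros, fell by 0.31 (adjusted p = 0.0003872) and Mef2c rose by 0.40 (adjusted p = 0.0003982). Pou2af1, a B cell coactivator chosen after its values were seen, gave 22, 13 and 18 counted reads in WT, against 3, 1 and 1 in cKO. It was at least 6.32-fold lower against the floor of 3 counts per library (adjusted p = 0.001083). In human, 13 of 18 fell and 2 rose: IRF8 fell by 1.22 and IKZF1 by 0.69, and FOXO1 rose by 0.73.

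Of 12 B cell receptor and pre-B genes tested in mouse, 5 rose and 2 fell. Cd79a was among those that fell. The kinases Lyn, Btk and Syk, which myeloid cells also use, rose by 0.80, 0.36 and 0.36. In human, 1 rose and 3 fell of 8 (3 and 2 with upper-quartile factors), with BTK higher by 0.22 and LYN and the adaptor PIK3AP1 lower (-0.40 and -0.33).

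Among early lymphoid surface and signalling genes, 2 rose and 3 fell of 8 in mouse. The homing receptor gene Ccr7 fell by 1.34 (adjusted p = 0.004588), and Cd27 rose by 0.64 (adjusted p = 0.003059). In human, 4 fell and 1 rose of 6, and GPR183, RHOH and NOTCH1 fell by 0.61, 0.51 and 0.23. The human count was 0 higher and 3 lower with DESeq2, with no filter, and without shDDX21 replicate 1 or 2.

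In the lymphotoxin and noncanonical NF-kB list, which holds the nearest relatives and the downstream partners of Ltb, 4 rose and 0 fell of 10 tested in mouse by edgeR's quasi-likelihood test, with 0 lower also in DESeq2 and at an unadjusted p under 0.05. That share of called genes is near the 36.5% of all genes. Tnf, next to Ltb on chromosome 17, gave 25, 25 and 25 counted reads in WT, against 47, 50 and 51 in cKO and rose by 0.86 (adjusted p = 0.004278). Tnfsf14 rose by 0.62 (adjusted p = 0.01038) and the receptor gene Tnfrsf1b by 0.51 (adjusted p = 0.004678). In human, 3 rose and 5 fell of 10 (4 and 4 with upper-quartile factors). TRAF3, TRAF2 and TNFRSF1A fell by 0.66, 0.44 and 0.22, and TNF, taken up after its values were seen, gave 20, 24 and 23 counted reads in shNC, against 10, 4 and 11 in shDDX21 (log2 fold change -1.47, adjusted p = 0.0006935).

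**Figure D5:**
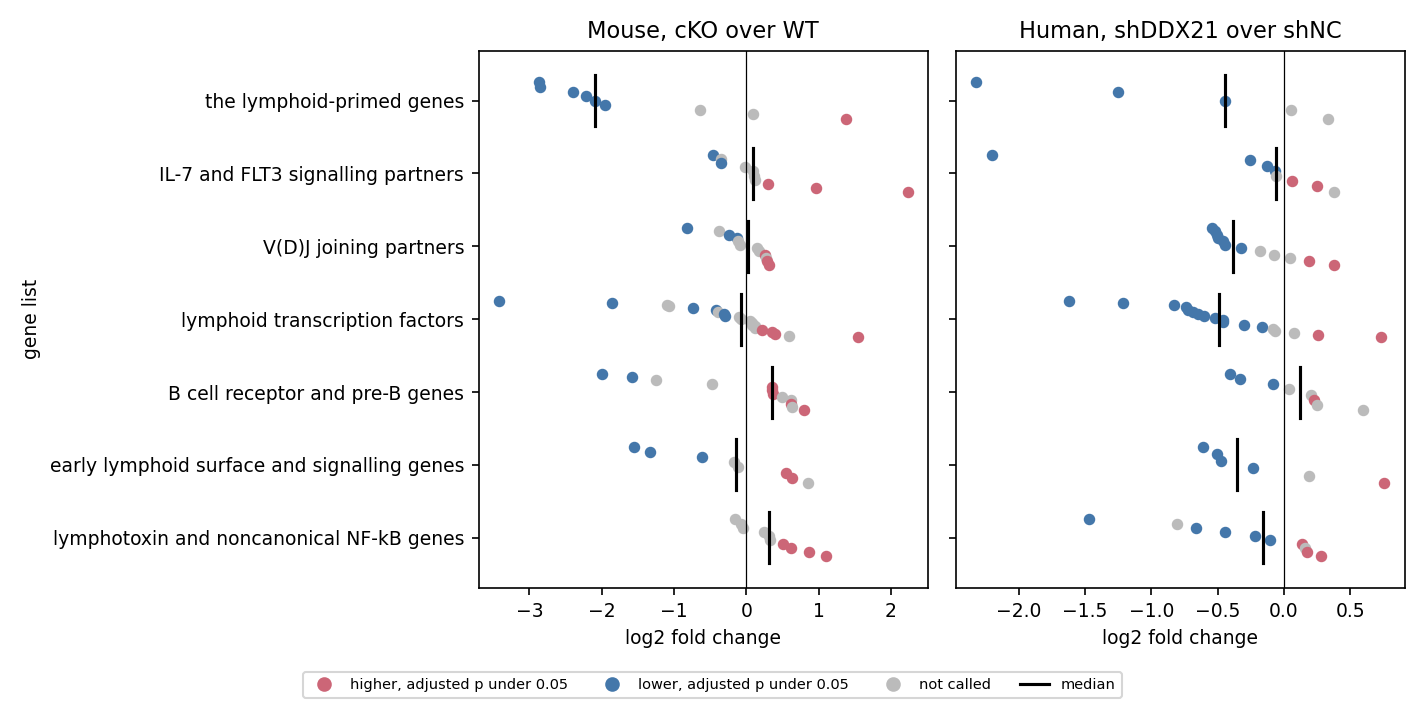
Log2 fold changes of the lymphoid-primed genes and the 6 lists, 1 point per tested gene, in mouse (left) and human (right). Red and blue points passed the test, grey points did not, and the black bar is the median, which is -2.09 for the lymphoid-primed genes in mouse and between -0.14 and 0.36 for the other lists.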

How the data were processed

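Libraries were aligned and counted by the authors with STAR and featureCounts, and DESeq2 and the builds mm10 and hg38 are also named, per the submitters' processing notes, which give no versions. The annotation release and the handling of strand and of multi-gene reads are not given in the sources used here. Every value starts from the deposited raw counts, whole numbers per gene. The normalized signal values that the authors also deposited were checked to be each count over 1 constant per library (largest relative deviation 4.97e-10), and their table was used for gene symbols. The 12 deposited columns of per-sample log ratios were not used. Symbols of Blnk and Dntt came from GENCODE M21, which holds 99.4% of the mouse identifiers and gives 99.4% of those the same coordinates. Promoter sequences are from RefSeq.

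Each experiment was fitted on its own in edgeR 4.0.16 (R 4.3.3), 3 against 3 libraries (filterByExpr, TMM, glmQLFit and glmQLFTest, two-sided, no covariates). Adjusted p is Benjamini-Hochberg over all genes tested, with calls under 0.05. SE was taken as the size of the log2 fold change divided by the root of F. The comparison of experiments was an interaction over all 12 libraries, scaled within each experiment. Floors of 3 counts cover counting error only. Alternatives were other scalings, DESeq2 1.42.0, other filters, a 2-fold minimum, a block by replicate number and leaving out each library.

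The genes and lists were chosen with earlier results of these data known. Named in the text are all 10 genes in both experiments, the targeted gene, up to 3 genes of smallest p per lymphoid list and experiment, and the most abundant marker of each cell type list. Any other gene is said to have been picked after its values were seen, or is named as a sort or defining marker, or for its overlap with the Rag genes. Some genes of these lists that the rule would name are not reported here.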

Additional observations from a re-analysis of the deposited data

Results flagged for a closer look

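4 of the 5 genes measured in both species had effects that differed between the experiments in the test of the difference itself (edgeR's quasi-likelihood test of the interaction, mouse minus human log2 fold change, 56.2% of matched genes called). RAG1 differed by -2.92, with a log2 fold change of -2.86 in mouse and 0.057 in human. BLNK differed by -2.72, from -2.39 in mouse and 0.33 in human. LTB differed by 2.63, from 1.38 in mouse and -1.25 in human, and its libraries moved in opposite directions without overlap in either experiment. CD79B differed by 0.54, from 0.09 in mouse and -0.45 in human, and this was the only 1 of the 4 whose call was lost under any alternative run.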

How the results depend on the processing

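The 74 results were recomputed under the alternative settings, which gave 1039 recomputed values. Of these values, 0 changed direction among those called, 45 lost their call, 1 gained one, 28 moved and 965 did not change. Requiring a 2-fold change as well lowered the called genes of the 6 lymphoid lists from 37 to 9 in mouse and from 47 to 4 in human. The same requirement lowered all called genes from 5443 to 1354 in mouse and from 10631 to 1450 in human, by its construction. Leaving out 1 library at a time gave 3717 to 5671 called genes in mouse and 9820 to 10079 in human, 28 to 39 and 41 to 44 list genes, 7 of the lymphoid-primed genes in mouse each time, 2 to 3 in human, and 3 to 4 in the interaction. Where this left 1 arm with 2 libraries, the spread was pooled over the rest. With at least 10 counts in every library, 5 of the lymphoid-primed genes were called in mouse, since Ebf1 and Blnk were then not tested. Under the other scalings the median log2 fold change of all genes lay within 0.0743 of 0. Replicate numbers are shared by the groups in the labels, but same-numbered libraries did not consistently deviate together: their correlations were 0.316, -0.177 and 0.0131 in mouse and -0.0138, -0.00238 and -0.000862 in human. Differently numbered mouse libraries reached 0.408 (WT replicate 3 with cKO replicate 2) and -0.419 (WT replicate 3 with cKO replicate 1). Deviations shared between the mouse groups thus did not follow the replicate numbers. With the replicate number as a block, 8 of the lymphoid-primed genes were called in mouse, 3 in human and 4 in the interaction, and the gain was Rag2 (log2 fold change -0.65, adjusted p = 0.04894, beside 0.064 without the block and 0.055 to 0.1873 without 1 library). The replicate block gave 5166 called genes in mouse. Depth limits Dntt, Blnk and Ebf1 in cKO, at 0 to 10 counts per library.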
